A study of Rattus norvegicus with 23 samples.

Results

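The livers of rats given alpha-naphthylisothiocyanate (ANIT) and of rats given acetaminophen (APAP) were set against each other through the difference between the effects of the 2 compounds: the change in ANIT livers against their own corn oil livers, minus the change in APAP livers against theirs. Sample titles chose the arrays, 12 of the 23 in the series, with 3 in each of 4 groups. The groups were ANIT at 100 mg/kg, corn oil at 5 ml/kg from the same in-life study, APAP at 1000 mg/kg, and corn oil at 2 ml/kg from the APAP study. All were male Sprague Dawley rats dosed repeatedly by oral gavage, fasted overnight and necropsied the day after the last dose, and RNA came from the left lateral lobe of a separate rat for each array. The titles of the 3 corn oil 5 ml/kg samples start with different animal numbers yet end in the same one, and the first number was read as the rat. ANIT and APAP were never dosed side by side, so any gap between the corn oil groups holds the in-life study, the dose volume and the array processing, which cannot be told apart.

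ANIT is joined to glutathione in the hepatocyte, passed into bile and released there, where it injures the bile duct lining, and it is a standard model of cholestasis in the rat. APAP is cleared mainly by glucuronidation and sulfation, and a share is oxidised by cytochrome P450 to a reactive quinone imine that glutathione traps; rats tolerate it better than mice. Loss of glutathione and electrophiles that bind KEAP1 free the transcription factor NRF2, which acts at antioxidant response elements and raises glutathione synthesis, conjugating enzymes and export pumps. Both compounds are thus met by glutathione in the hepatocyte.

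Every value is a log2 expression value from robust multichip averaging, and a gene is represented by 1 probe set. A positive difference means that the ANIT effect lay above the APAP effect, whether the gene went up with ANIT or down with APAP. A gene was called when limma gave an adjusted p under 0.05 over all 31042 probe sets and the change exceeded 1.5-fold. Errors after a log2 value are standard errors of the 4-group model. The tissue label held: albumin (Alb) lay between 14.57 and 15.99 in all 12 livers and transthyretin (Ttr) between 14.32 and 15.79. Of 15 pancreatic acinar markers measured, Prss1 and Cpa1 stayed at 8.34 to 8.82 and 7.54 to 8.02. Cel lay at 8.92 to 9.26, and Cela1, the highest of the 15, at 10.27 to 11.54. Arrays of a group correlated at 0.987 to 0.993 for ANIT and at 0.991 to 0.995 for the other 3 groups, and array medians ran from 8.95 to 9.02. In bulk liver a lower share of a cell type and less RNA per cell cannot be told apart.

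A set of 3 arrays stood apart at the top of the scale. ANIT 1, ANIT 2 and corn oil 5 ml/kg 2 had no probe set above 15 and a highest value of 14.57 to 14.97, whereas the other 9 arrays reached 15.95 to 15.99 and had 32 to 38 probe sets above 15. This touches the most abundant transcripts. Among 87 genes that averaged above 14 in corn oil 2 ml/kg livers, 10 were called in the difference, 1 higher and 9 lower, and their median difference of -0.26 became -0.06 after quantile normalization and -0.03 without those 3 arrays. Without them, ANIT rests on 1 array whose spread is taken from the other groups. Without them the count of called members moved by more than 2 genes in a direction in 5 of 41 gene lists, for which it is given again below, and by 0 to 2 genes in the other 36.

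Of 14217 genes, 452 (3.18%) had a difference called higher and 341 (2.4%) a difference called lower. The ANIT effect alone gave 582 genes higher (4.09%) and 496 lower (3.49%), and the APAP effect 47 higher (0.331%) and 22 lower (0.155%). The corn oil groups differed in 16 genes higher at 5 ml/kg (0.113%) and 2 lower (0.0141%). Across probe sets the ANIT effects had an SD of 0.337, the APAP effects 0.186 and the corn oil gaps 0.167, and the ANIT and APAP effects correlated at r = 0.13 over 31042 probe sets, which are not independent replicates. Without the 3 arrays with a lower top, the difference was called higher in 407 genes and lower in 583, of which 539 had the same call with all arrays.

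A called difference came mostly from the ANIT side. Of the 793 genes, 597 (75.3%) were called in the ANIT effect alone, 372 of them higher and 225 lower. Another 28 (3.53%) were called in the APAP effect alone, 21 raised and 7 lowered by APAP. Another 4 genes were called in both effects in opposite directions, and 5 in both in the same direction but to different extents. In the remaining 159 (20.1%) neither effect was called by itself. The smaller classes depended on single arrays: the 5 genes became 1 to 7 and the 4 became 1 to 6 when 1 array was left out. The 5 moved by more than 1.5 times without any 1 array other than ANIT 1, ANIT 3, APAP 3 or corn oil 2 ml/kg 3, and the 4 without APAP 1 or any 1 corn oil 2 ml/kg array. The 28 genes became 15 to 29 when 1 array was left out, and moved by more than 1.5 times without APAP 1, corn oil 2 ml/kg 1 or corn oil 2 ml/kg 2, and the 159 became 104 without corn oil 5 ml/kg 2.

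**Figure D1:**
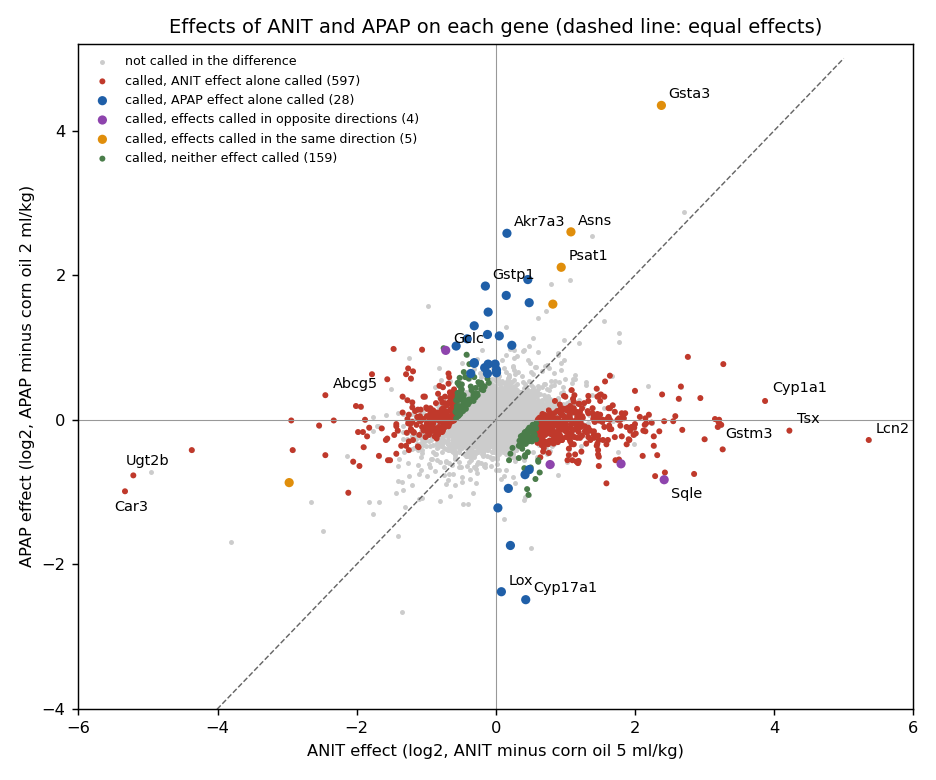
Effect of ANIT (log2, ANIT minus corn oil 5 ml/kg, horizontal) and of APAP (log2, APAP minus corn oil 2 ml/kg, vertical) on each of 14217 genes; colours mark the 793 genes called in the difference by which effects were called. Most coloured points spread along the horizontal axis, as in the 597 genes called in the ANIT effect alone, and Gsta3 is the highest point at an APAP effect of 4.35.

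Genes of glutathione synthesis and of the NRF2 response lay lower in the difference. NRF2 targets numbered 26, of which 8 were called lower and 2 higher with a median difference of -0.65, where all genes had -0.04. APAP raised 13 of the 26 and lowered 0, while ANIT raised 8 and lowered 1. The 8 became 5 to 9 when 1 array was left out, with moves beyond 1.5 times without corn oil 5 ml/kg 1, corn oil 2 ml/kg 2, corn oil 2 ml/kg 3 or APAP 1, and without the 3 low-topped arrays the counts were 9 lower and 0 higher. The list was drawn up with earlier results of these data known, so its counts describe these livers and are not independent evidence.

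The antioxidant response element core was sought in the 250 bases before each start site on both strands, as TGACNNNGC. Stretches of some APAP-raised genes that hold it are shown. RefSeq promoters (build GRCr8) were matched for 11700 genes, of which 12.3% held the core. It was found in 9 of 42 genes raised by APAP (21.4%) and in 33 of 308 genes raised by ANIT alone with a called difference (10.7%). Among lists raised mainly by ANIT it stood in 4 of 16 cholesterol synthesis promoters (25%) and 7 of 36 mitosis promoters (19.4%). A match is a string of letters and not a shown binding site. The 9 matches also included Pir, Htatip2 and Reep6, which are not printed. No match was found for Gclc, Nqo1, Akr7a3 or Txnrd1, whether for want of the core or of a matched promoter. The stretches below run 5′ to 3′ on the strand of the gene with the core in capitals: Gclm at chr2:213031943-213031991 (plus strand, 172 bases before the start), Gstp1 at chr1:210769738-210769786 (minus strand, 61 bases before), Me1 at chr8:96540383-96540431 (minus strand, 167 bases before), Ugdh at chr14:43202291-43202339 (plus strand, 207 bases before) and Gsta3 at chr9:31154952-31154988 (plus strand, 17 bases before).
Gclm: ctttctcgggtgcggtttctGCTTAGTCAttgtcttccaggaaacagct
Gstp1: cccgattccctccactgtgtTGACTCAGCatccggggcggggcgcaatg
Me1: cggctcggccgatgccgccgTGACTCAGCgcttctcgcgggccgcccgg
Ugdh: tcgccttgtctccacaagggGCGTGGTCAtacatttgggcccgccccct
Gsta3: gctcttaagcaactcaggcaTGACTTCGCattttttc
Gstp1 and Me1 shared the same 9 letters, and Gclm and Ugdh carried the core on the opposite strand.

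Gclc and Gclm encode the catalytic and modifier subunits of glutamate-cysteine ligase, the enzyme that sets the rate of glutathione synthesis. Gclc lay at 11.09, 11.18 and 11.28 in ANIT livers, 11.98, 11.96 and 11.78 in corn oil 5 ml/kg livers, 12.69, 12.57 and 12.67 in APAP livers and 11.97, 11.63 and 11.46 in corn oil 2 ml/kg livers. All ANIT livers were below all others and all APAP livers above all others, with no overlap between any treated group and its corn oil group. ANIT lowered Gclc (-0.72 ± 0.12, log2) and APAP raised it by 0.96 ± 0.12, a difference of -1.68 ± 0.16 (adjusted p = 0.000143), and it was 1 of the 4 genes called in opposite directions. Gclm took the same shape, with 11.57, 11.30 and 11.39 in ANIT livers, 12.12, 11.94 and 11.91 in corn oil 5 ml/kg livers, 12.70, 12.89 and 12.62 in APAP livers and 11.88, 11.64 and 11.63 in corn oil 2 ml/kg livers. APAP livers again lay above all others and ANIT livers below all others, and the difference was -1.59 ± 0.15 (adjusted p = 0.00012), although the ANIT effect of -0.57 was not called. Ugdh, which makes the UDP-glucuronic acid used in glucuronidation, stood at 12.55, 12.39 and 12.36 in ANIT livers, 12.91, 12.74 and 12.87 in corn oil 5 ml/kg livers, 13.58, 13.69 and 13.29 in APAP livers and 12.39, 12.34 and 12.49 in corn oil 2 ml/kg livers (difference -1.53 ± 0.14, adjusted p = 0.000129). Only the APAP livers of Ugdh were set off upwards from every other liver, at an APAP effect of 1.12. Its ANIT livers lay below their own controls without overlap, at an effect of -0.41 that was not called. Ugp2, which makes the UDP-glucose that Ugdh uses, was lowered by ANIT (-1.19) with an APAP effect of 0.67 that was not called (difference -1.86, adjusted p = 0.000221).

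The steepest APAP-side gene of the list was Akr7a3, an aldehyde reductase known for aflatoxin aldehyde clearance. It measured 12.54, 12.29 and 11.87 in ANIT livers, 12.22, 11.83 and 12.16 in corn oil 5 ml/kg livers, 14.38, 14.30 and 14.47 in APAP livers and 11.80, 11.79 and 11.82 in corn oil 2 ml/kg livers. The APAP livers lay far above the rest, and ANIT livers overlapped their own controls. The APAP effect was 2.58 ± 0.15, the ANIT effect 0.16 ± 0.15, and the difference -2.42 ± 0.21 (adjusted p = 7.24e-05). Txnrd1, which reduces thioredoxin, had an APAP effect of 0.79 and an ANIT effect of -0.31 (difference -1.10), and malic enzyme Me1, a source of NADPH, had 1.03 with APAP and 0.23 with ANIT (difference -0.80). Both differences were called with no call in the ANIT effect, that of Me1 no longer without the 3 low-topped arrays (-0.82). In Me1 the corn oil gap of 0.67 made up most of the difference, and ANIT livers at 11.76, 12.02 and 11.91 overlapped APAP livers at 12.11, 11.86 and 12.09, with a gap of -0.13 between the means. Nqo1, the quinone reductase most often used as an NRF2 readout, rose with both compounds: 12.86, 12.85 and 12.40 in ANIT livers against 12.04, 11.80 and 11.80 in corn oil 5 ml/kg livers, and 13.39, 13.52 and 13.27 in APAP livers against 11.89, 11.83 and 11.66 in corn oil 2 ml/kg livers. Neither treated group overlapped its controls, and the rise was 0.82 with ANIT and 1.60 with APAP (difference -0.77 ± 0.18, adjusted p = 0.0279), a call that was lost without APAP 1, APAP 2, corn oil 2 ml/kg 2, corn oil 2 ml/kg 3, corn oil 5 ml/kg 1 or corn oil 5 ml/kg 2 (adjusted p 0.0503 to 0.0714).

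Not every target was stronger with APAP. Gpx2, a glutathione peroxidase that removes hydroperoxides, lay at 11.91, 12.15 and 10.70 in ANIT livers, 8.49, 7.97 and 8.48 in corn oil 5 ml/kg livers, 8.66, 9.82 and 8.51 in APAP livers and 8.0, 8.14 and 8.52 in corn oil 2 ml/kg livers. ANIT livers stood clear of the rest, and of the APAP livers only APAP 2 lay well above its controls. Its difference was 2.50 ± 0.53 (adjusted p = 0.019), lost without APAP 1 or corn oil 5 ml/kg 2 (adjusted p 0.0529 to 0.053), and 1.44 and not called without the 3 low-topped arrays. Pgd, an NADPH-forming enzyme of the pentose phosphate path, was the other member called higher (0.68 ± 0.13). Tkt, transketolase, rose by 0.89 with ANIT and 0.89 with APAP, while heme oxygenase Hmox1 rose with ANIT (0.90) and read 0.93 with APAP, which was not called. The 95% interval of the difference was -0.63 to 0.58 for Hmox1 and -0.38 to 0.38 for Tkt.

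**Figure D2:**
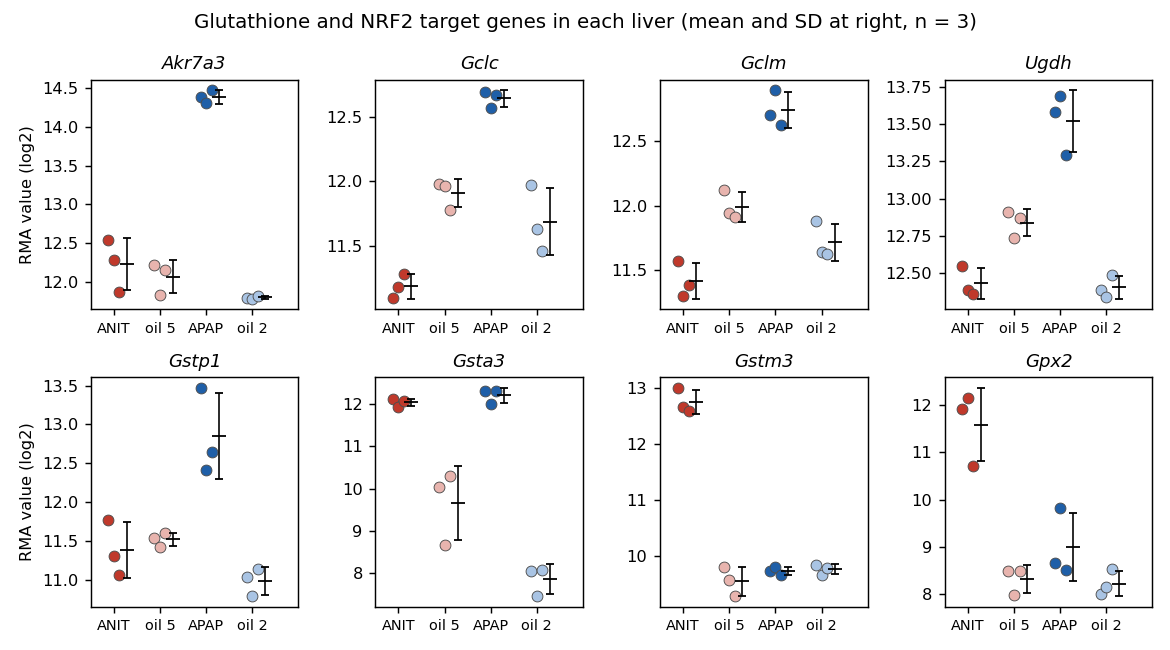
RMA expression values (log2, vertical) of 8 glutathione and NRF2 target genes in each liver of the ANIT, corn oil 5 ml/kg, APAP and corn oil 2 ml/kg groups; points are livers and the bar at the right of each group is the mean and SD (n = 3). Akr7a3, Gclc, Gclm, Ugdh and Gstp1 are highest in APAP livers, Gstm3 and Gpx2 in ANIT livers, and Gsta3 reaches 11.94 to 12.32 in both treated groups from unequal controls.

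Glutathione S-transferases were mostly lower where called. The list held 20 measured enzymes, with 5 called lower, 1 called higher and a median difference of -0.35. Gstp1, the pi class enzyme that is low in normal rat hepatocytes, lay at 11.77, 11.31 and 11.06 in ANIT livers, 11.54, 11.43 and 11.60 in corn oil 5 ml/kg livers, 13.47, 12.42 and 12.65 in APAP livers and 11.04, 10.79 and 11.14 in corn oil 2 ml/kg livers. All APAP livers exceeded all others, and ANIT livers overlapped their controls (difference -2.0 ± 0.33, adjusted p = 0.0048). Gstp3, a related pi class gene, fell with ANIT, at 9.45, 10.69 and 10.35 against 12.69, 13.27 and 13.28 in corn oil 5 ml/kg livers, while APAP livers at 13.32, 12.97 and 12.79 overlapped their corn oil 2 ml/kg controls at 13.61, 13.27 and 13.45. The ANIT livers were lowest without overlap, and the difference was -2.50 ± 0.38 (adjusted p = 0.00271). Gstm3, of the mu class, was the only member called higher: 13, 12.66 and 12.58 in ANIT livers, 9.79, 9.57 and 9.27 in corn oil 5 ml/kg livers, 9.72, 9.80 and 9.66 in APAP livers and 9.84, 9.66 and 9.77 in corn oil 2 ml/kg livers. ANIT raised it by 3.20 with no overlap, the APAP effect of -0.03 was not called with overlapping groups, and the difference was 3.23 ± 0.19 (adjusted p = 3.17e-06). Gstz1 (-0.86) and Gsto1 (-0.75) were also called lower. Family members share sequence, and a probe set may bind more than its named gene.

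Gsta3, an alpha class transferase, had the tallest APAP effect of all genes and shows how the controls entered the difference. It lay at 12.11, 11.94 and 12.07 in ANIT livers and 10.03, 8.67 and 10.29 in corn oil 5 ml/kg livers, and at 12.32, 12.01 and 12.30 in APAP livers and 8.06, 7.45 and 8.07 in corn oil 2 ml/kg livers. Treated livers of both compounds ended at nearly the same height, whereas the corn oil 5 ml/kg livers stood above the corn oil 2 ml/kg livers without overlap. The effect was 2.38 with ANIT and 4.35 with APAP, so the difference of -1.97 ± 0.46 (adjusted p = 0.0273) equals a gap of -0.17 between ANIT and APAP livers minus a gap of 1.80 between their corn oil livers. Its call was lost without ANIT 2, APAP 1, APAP 3, corn oil 2 ml/kg 2, corn oil 5 ml/kg 1 or corn oil 5 ml/kg 3 (adjusted p 0.0506 to 0.0703).

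Serine synthesis and other targets of ATF4, the transcription factor of amino acid shortage, also leaned to APAP. Of 25 members 5 were called lower and 0 higher, with a median difference of -0.25, yet the 5 became 1 to 5 when single arrays were left out and 2 without the 3 low-topped arrays. Asns, asparagine synthetase, rose with both: 10.44, 9.70 and 9.77 in ANIT livers against 9.27, 8.97 and 8.43 in corn oil 5 ml/kg livers, and 11.60, 10.93 and 11.74 in APAP livers against 8.59, 8.87 and 9.01 in corn oil 2 ml/kg livers. No treated liver overlapped its controls, and the rise was 1.08 with ANIT and 2.60 with APAP (difference -1.52 ± 0.37, adjusted p = 0.0322), a call lost without any 1 array other than ANIT 1, corn oil 5 ml/kg 3, APAP 2 or corn oil 2 ml/kg 3 (adjusted p 0.0616 to 0.0818) and without the 3 low-topped arrays (-1.69). Psat1, the second enzyme of serine synthesis, behaved alike at 0.94 with ANIT and 2.11 with APAP (difference -1.17, adjusted p = 0.0132; -1.24 and not called without the 3 arrays). Phgdh, the first enzyme, rose by 1.38 with ANIT and 2.54 with APAP, and its difference of -1.16 (95% interval -2.12 to -0.21) was not called, but was called at -1.55 without ANIT 1. Trib3, a pseudokinase induced by ATF4, was raised by APAP alone (1.30, against -0.31 with ANIT), with a difference of -1.61 that lost its call without APAP 1 (adjusted p = 0.0506) and also without the 3 arrays. Ddit4l, an inhibitor of the mTOR pathway, was likewise raised by APAP alone, at 9.72, 10.74 and 9.20 in APAP livers against 8.44, 8.22 and 8.52 in corn oil 2 ml/kg livers, and its difference of -1.60 lost the call without any 1 array other than ANIT 2, APAP 2 or APAP 3 (adjusted p 0.0545 to 0.0884) and without the 3 arrays. Fgf21, a fasting hormone under both PPAR alpha and ATF4, fell with ANIT (-1.47) and had an APAP effect of 0.98 that was not called. Its difference of -2.45 lost the call without any 1 array other than ANIT 2, corn oil 5 ml/kg 3 or corn oil 2 ml/kg 3 (adjusted p 0.0502 to 0.0754) and without the 3 arrays.

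Sterol synthesis was the clearest case of effects that ran apart. When cell cholesterol is low, the membrane-bound factor SREBP2 is cut and raises nearly every enzyme from acetyl-CoA to cholesterol. All 20 measured members had a difference above 0, 19 were called higher, and the median was 1.66. ANIT raised 18 of them, APAP lowered 3, and the 19 held at 19 to 20 when any single array was left out and at 19 without the 3 arrays. Only Dhcr7, a sterol reductase of the last steps, missed the call at 0.66 ± 0.19 (adjusted p = 0.0756). The plot in pathway order has all 20 ANIT effects to the right of 0.

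**Figure D3:**
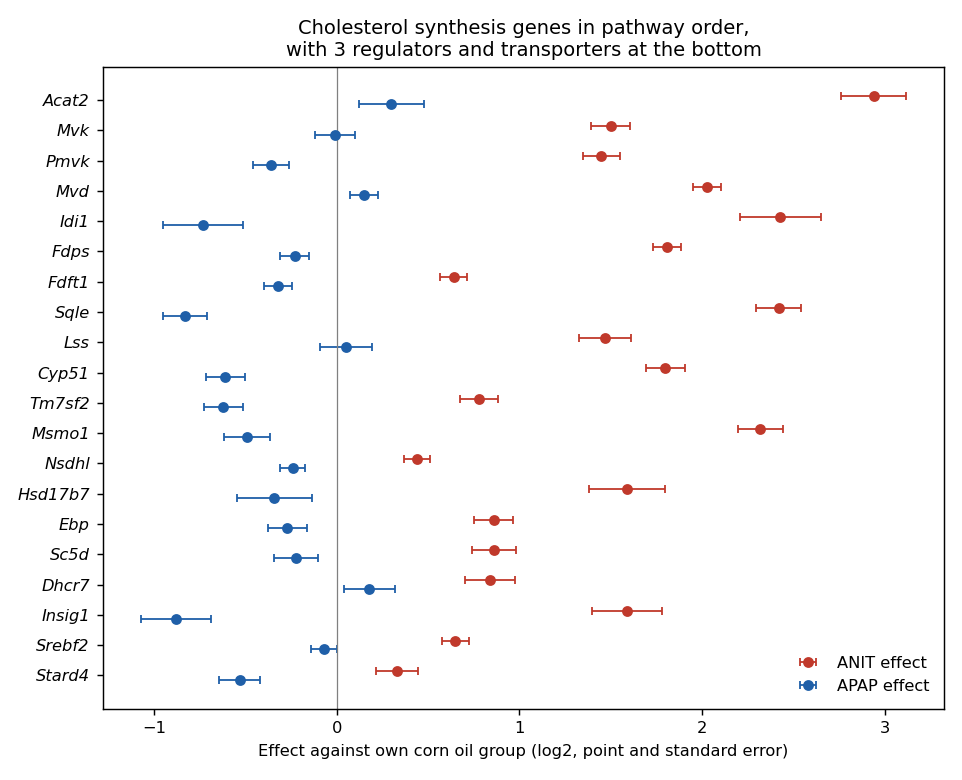
ANIT effect and APAP effect (log2 against the corn oil group of the same study, horizontal; points with standard errors) of the 20 cholesterol synthesis genes in pathway order (vertical). ANIT effects lie between 0.33 for Stard4 and 2.94 for Acat2, and those of APAP were called below 0 for Sqle, Cyp51 and Tm7sf2.

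The APAP-lowered genes were Sqle, Cyp51 and Tm7sf2, which act in squalene epoxidation, lanosterol demethylation and sterol ring reduction, and each was raised by ANIT. Sqle lay at 12.31, 12.28 and 12.57 in ANIT livers, 9.87, 9.95 and 10.09 in corn oil 5 ml/kg livers, 9.40, 9.54 and 9.23 in APAP livers and 10.35, 10.33 and 9.97 in corn oil 2 ml/kg livers. The order was ANIT highest, both corn oil groups between, APAP lowest, with no overlap of a treated group and its controls. ANIT raised Sqle by 2.42 ± 0.12 and APAP lowered it (-0.83 ± 0.12), a difference of 3.25 ± 0.17 (adjusted p = 2.82e-06). Cyp51 repeated this order with 13.23, 13.19 and 13.51 in ANIT livers, 11.41, 11.44 and 11.69 in corn oil 5 ml/kg livers, 10.95, 11.11 and 10.94 in APAP livers and 11.74, 11.53 and 11.58 in corn oil 2 ml/kg livers (effects 1.80 and -0.61, difference 2.41 ± 0.15, adjusted p = 5.59e-06). Tm7sf2 was the mildest, with effects of 0.78 and -0.62 and a difference of 1.40 ± 0.15 (adjusted p = 0.000256). The 4 genes of opposite calls became 1 to 6 when single arrays were left out, with moves beyond 1.5 times without APAP 1 or any corn oil 2 ml/kg array. The largest differences after Sqle belonged to Idi1 (3.16 ± 0.31), the isopentenyl diphosphate isomerase, Msmo1 (2.82 ± 0.18), a methylsterol oxidase, and Acat2 (2.64 ± 0.25), the thiolase at the entry. Their APAP effects of -0.73, -0.49 and 0.30 were not called. Insig1, which holds SREBP in the endoplasmic reticulum and is itself a target, differed by 2.48.

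CCAAT boxes, bound by NF-Y beside SREBP and in cell cycle promoters, were counted in the same 250 bases on both strands, since sterol and mitosis genes were the 2 lists with the highest share called. The letters stood in 13 of 16 cholesterol promoters (81.2%) and in 28 of 36 mitosis promoters (77.8%), where 35.1% of all promoters held them. An example of each is printed with the box in capitals, Idi1 from chr17:66547535-66547610 (minus strand, boxes 66 and 35 bases before the start) and Cdkn3 from chr15:22502236-22502381 (plus strand, boxes 130 to 29 bases before).
Idi1: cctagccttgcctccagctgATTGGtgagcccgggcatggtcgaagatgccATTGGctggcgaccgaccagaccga
Cdkn3: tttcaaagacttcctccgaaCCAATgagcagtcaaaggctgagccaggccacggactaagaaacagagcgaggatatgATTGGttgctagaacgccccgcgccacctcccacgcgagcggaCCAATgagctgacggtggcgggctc
Capitals reading ATTGG are the same box on the opposite strand.

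Fatty acid synthesis moved with the sterol genes, and fatty acid oxidation against them. Of 20 lipogenic genes 8 were called higher and 1 lower (median 0.74), and of 33 oxidation and PPAR alpha genes 13 were called lower and 0 higher (median -0.61). Fasn, fatty acid synthase, lay at 12.70, 13.22 and 13.14 in ANIT livers, 9.93, 10.27 and 10.57 in corn oil 5 ml/kg livers, 11.48, 11.38 and 11.71 in APAP livers and 10.91, 10.62 and 10.44 in corn oil 2 ml/kg livers. ANIT livers were highest, and APAP livers were also above their own controls without overlap, although only the ANIT effect of 2.76 was called (APAP 0.87, difference 1.89 ± 0.26, adjusted p = 0.00136). Elovl6 (2.03), Fads1 (1.89) and Acacb (1.76), which elongate fatty acids, desaturate them and make malonyl-CoA at the mitochondrion, followed with APAP effects of 0.04, -0.42 and -0.28 that were not called. The exception among lipogenic genes was Me1, described above with the NRF2 targets.

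On the oxidation side ANIT lowered 23 of the 33 genes and APAP 0, where APAP lowered 0.155% of all genes. The APAP effect had an unadjusted p under 0.05 (limma) in 13 of the 33, and in 1590 of all 14217 genes. Its median was -0.19 in these 33 and 0.02 over all genes, so the absence of calls does not show that APAP left them unmoved. Crot, which moves medium-chain acyl groups out of peroxisomes, had 11.88, 11.64 and 12.16 in ANIT livers, 13.74, 13.55 and 13.44 in corn oil 5 ml/kg livers, 12.84, 12.41 and 13.07 in APAP livers and 13.46, 13.05 and 13.30 in corn oil 2 ml/kg livers. ANIT livers were lowest, and APAP livers extended below their controls with 1 liver inside their range (difference -1.19 ± 0.24, adjusted p = 0.016; -0.93 and not called without the 3 arrays). Bdh1, of ketone body formation, differed by -1.06 ± 0.15, Cpt2 of the carnitine shuttle by -0.92, Hadh of beta oxidation by -0.91 and Pex11a of peroxisome division by -1.0. Angptl4, a lipase inhibitor induced by fasting, differed by -1.01, a call lost without any 1 array other than ANIT 2, APAP 2, APAP 3 or corn oil 2 ml/kg 3 (adjusted p 0.0513 to 0.0802) and without the 3 arrays. The corn oil gap of Angptl4 was 0.56. The 13 calls became 7 to 14 with single arrays left out, with moves beyond 1.5 times without corn oil 5 ml/kg 1, ANIT 3, corn oil 2 ml/kg 1 or corn oil 2 ml/kg 2. G0s2, an inhibitor of triglyceride lipase that no list named, was at 10.88, 11.51 and 10.77 in ANIT livers and 12.98, 13.08 and 13.14 in corn oil 5 ml/kg livers, and at 13.21, 13.06 and 13.48 in APAP livers and 12.97, 12.86 and 13.33 in corn oil 2 ml/kg livers. Only ANIT livers were low (difference -2.21 ± 0.26, adjusted p = 0.000552).

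**Figure D4:**
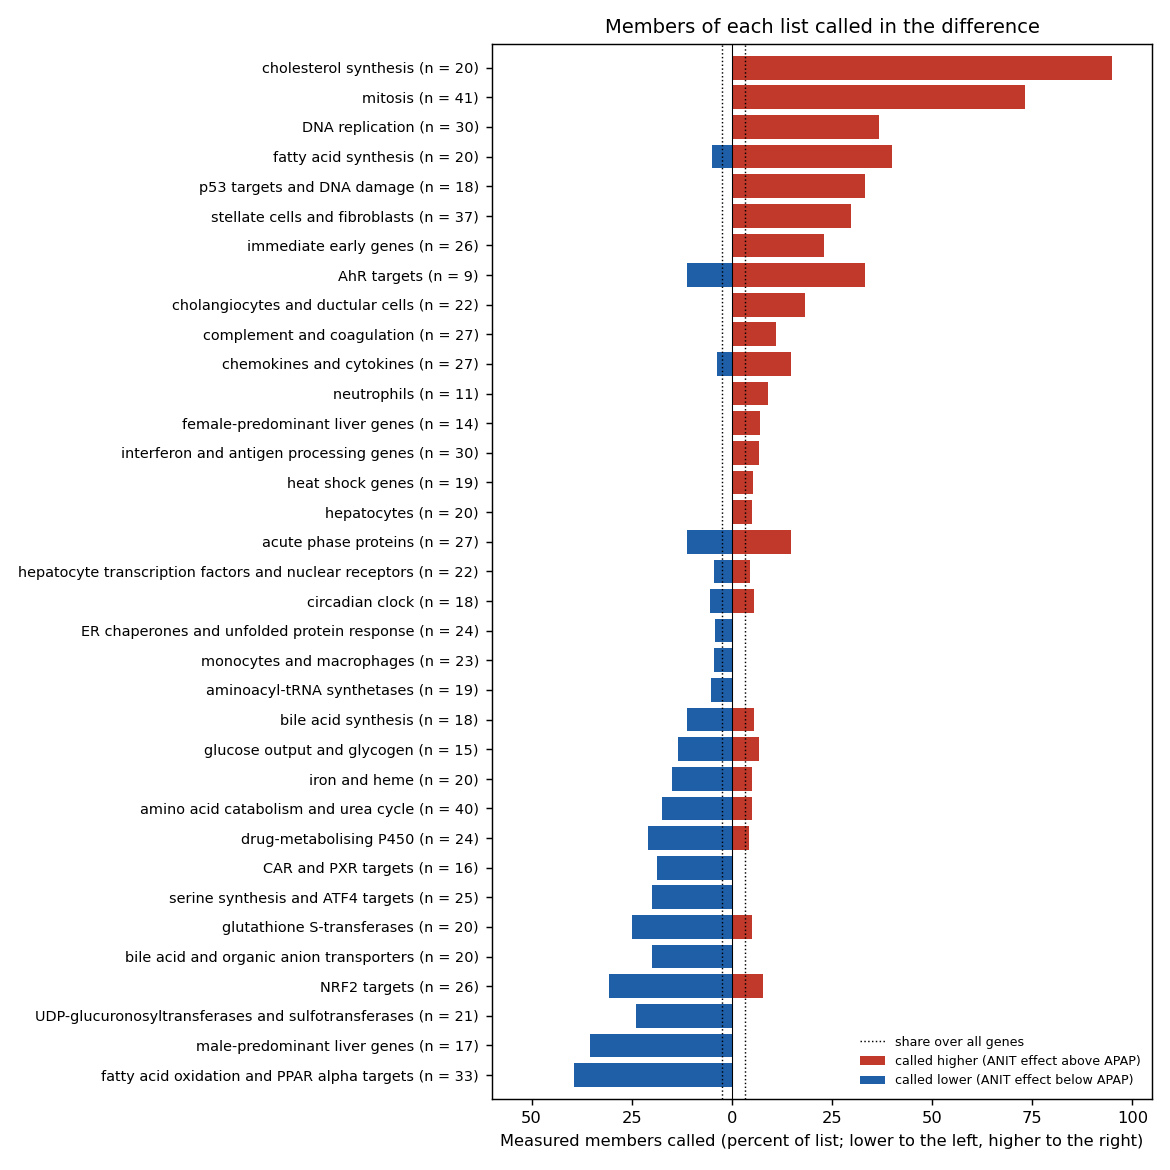
Share of measured members of each list called in the difference (percent, horizontal; lower to the left in blue, higher to the right in red), for lists with at least 1 called member (vertical, n = measured members); dotted lines mark 3.18% higher and 2.4% lower over all genes. Cholesterol synthesis (19 of 20) and mitosis (30 of 41) reach farthest right, fatty acid oxidation (13 of 33) and male-predominant genes (6 of 17) farthest left.

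Cell division genes rose with ANIT and none was called with APAP. All 41 measured mitosis genes had a difference above 0, 30 were called higher and the median was 1.26; of 30 DNA replication genes 11 were called higher, with a median of 0.51. ANIT raised 35 and 13 of them, and the APAP effect was called in 0 of either list (limma; 3 mitosis and 1 replication gene at an unadjusted p under 0.05). Ccna2, cyclin A, lay at 7.88, 9.08 and 7.78 in ANIT livers, 5.06, 5.12 and 5.0 in corn oil 5 ml/kg livers, 5.02, 4.96 and 5.10 in APAP livers and 5.17, 5.11 and 5.11 in corn oil 2 ml/kg livers. The 3 ANIT livers stood far above the 9 others, which lay within 4.96 to 5.17, and ANIT 2 was the highest. Those 9 values were among the lowest 1.34% of probe sets on their arrays, so the size of the difference is not resolved there (fitted value 3.29 ± 0.35, adjusted p = 0.000276). The proliferation marker Mki67 showed 9.38, 10.39 and 9.29 in ANIT livers, 6.58, 6.47 and 6.56 in corn oil 5 ml/kg livers, 6.48, 6.38 and 6.56 in APAP livers and 6.41, 6.53 and 6.45 in corn oil 2 ml/kg livers, again with ANIT 2 on top and the corn oil values in the lowest 9.99% of probe sets. Its difference was 3.14 ± 0.30 (adjusted p = 0.000143). Cdkn3, a phosphatase of cyclin-dependent kinases, differed by 3.22 ± 0.38, Ect2 of cytokinesis by 2.57 ± 0.33, and the origin-licensing helicase genes Mcm4 and Mcm6 by 1.89 ± 0.16 and 2.18 ± 0.31. Mybl1, a MYB family factor, differed by 3.67 ± 0.29, with 11.06, 11.20 and 11.65 in ANIT livers against 8.01, 7.97 and 8.16 in corn oil 5 ml/kg livers and 7.73, 7.88 and 7.66 in APAP livers against 8.72, 7.86 and 7.93 in corn oil 2 ml/kg livers. In mitosis genes the count was 23 to 32 with single arrays left out and 31 without the 3 arrays.

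Targets of p53 were called higher in 6 of 18 members, and in some of them APAP livers lay below their controls. Cdkn1a, the cell cycle inhibitor p21, was at 11.88, 12.14 and 11.78 in ANIT livers, 11.23, 11.31 and 11.56 in corn oil 5 ml/kg livers, 10.55, 10.62 and 10.94 in APAP livers and 12.05, 11.55 and 10.99 in corn oil 2 ml/kg livers. ANIT livers lay above their controls and APAP livers below theirs, each without overlap, but neither effect was called (0.57 and -0.82). The difference of 1.40 ± 0.30 (adjusted p = 0.021) lost its call without APAP 1, corn oil 5 ml/kg 1 or corn oil 5 ml/kg 2 (adjusted p 0.0531 to 0.0561). Ccng1 (1.23), Fas (1.18) and Phlda3 (1.12), a cyclin, a death receptor and an AKT inhibitor, were called as well, though Fas gave only 0.36 when all its probe sets were averaged. Without the 3 low-topped arrays 1 member of the list was called, and 3 were without corn oil 5 ml/kg 2.

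Cyp1a1 and Cyp1b1, targets of the aryl hydrocarbon receptor (AhR), which senses planar ring compounds, rose with ANIT. Cyp1a1, the standard readout of the receptor, measured 13.03, 13.33 and 12.97 in ANIT livers, 9.38, 9.31 and 9.04 in corn oil 5 ml/kg livers, 9.32, 9.44 and 9.89 in APAP livers and 9.26, 9.33 and 9.27 in corn oil 2 ml/kg livers. ANIT livers were far above the rest, and the difference was 3.61 ± 0.20 (adjusted p = 3.17e-06). The Cyp1b1 effect was called with ANIT only (0.88, against 0.02 with APAP). Cyp1a2 reached its difference from the other side: 13.91, 13.98 and 13.81 in ANIT livers, 13.52, 13.30 and 13.59 in corn oil 5 ml/kg livers, 12.31, 12.09 and 12.23 in APAP livers and 13.20, 13.04 and 12.67 in corn oil 2 ml/kg livers. The APAP livers were lowest, with a called effect of -0.76, while the ANIT effect of 0.42 was not called (difference 1.18 ± 0.18, adjusted p = 0.00248). Of 9 measured AhR targets 3 were called higher and 1 lower, the last being Nqo1, and 3 and 2 without the 3 arrays. The AhR element core GCGTG stood in 41% of all promoters, in 38.3% of the 308 ANIT-raised promoters and in 61.9% of the 42 APAP-raised ones.

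The remaining drug-metabolising P450 genes leaned to lower values with ANIT. Of 24 measured, 5 were called lower and 1 higher, the median was -0.46, and ANIT lowered 11 and APAP 0 (limma; 3 of 24 at an unadjusted p under 0.05). Cyp2c11, the main male P450 of rat liver, was at 11.42, 11.71 and 11.57 in ANIT livers, 14.21, 13.87 and 13.97 in corn oil 5 ml/kg livers, 13.77, 13.47 and 13.61 in APAP livers and 14.33, 14.35 and 13.63 in corn oil 2 ml/kg livers. ANIT livers lay below all others, and APAP livers overlapped their controls (difference -1.96 ± 0.24, adjusted p = 0.000847). Cyp2a2, Cyp2d3 and Cyp2j3 differed by -1.11, -1.11 and -1.17. Cyp2e1, the P450 best known for oxidising APAP, fell with ANIT (-1.21) and read 0.0 with APAP, and its difference of -1.21 ± 0.37 (95% interval -2.02 to -0.40) was not called, but was at -1.68 without the 3 low-topped arrays.

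Male-predominant liver genes, which depend on pulsed growth hormone, had 6 of 17 members called lower and 0 higher, with a median of -0.93. ANIT lowered 12 of them and APAP 0, where APAP lowered 0.155% of all genes. The APAP effect had an unadjusted p under 0.05 (limma) in 4 of the 17, and its median was -0.26 against 0.02 over all genes. Dhrs7l1, a short-chain dehydrogenase, lay at 7.14, 8.06 and 7.61 in ANIT livers, 12.60, 11.58 and 11.75 in corn oil 5 ml/kg livers, 11.04, 11.77 and 12.36 in APAP livers and 12.42, 12.46 and 11.55 in corn oil 2 ml/kg livers. ANIT livers were separated downwards by a wide margin, with the other 9 overlapping (difference -3.95 ± 0.52, adjusted p = 0.00122). Ust5r, an organic anion transporter-like gene, differed by -2.46 ± 0.34, and Mup5, a major urinary protein, by -1.74. Obp3, a related lipocalin, was on the list at -4.24 ± 1.18 without a call (adjusted p = 0.0605), with ANIT livers scattered over 6.54, 10.48 and 6.08 against 13.13, 12.34 and 12.52 in corn oil 5 ml/kg livers. Car3, carbonic anhydrase 3, is not on the list but is known to be higher in male rat liver, and it was the second lowest difference of all: 7.65, 7.72 and 8.17 in ANIT livers, 12.97, 13.46 and 13.10 in corn oil 5 ml/kg livers, 12.88, 11.66 and 12.44 in APAP livers and 13.78, 13.81 and 12.36 in corn oil 2 ml/kg livers. ANIT lowered it (-5.33 ± 0.37), the APAP effect of -0.99 ± 0.37 was not called, and the difference was -4.34 ± 0.52 (adjusted p = 0.000631). Of 14 female-predominant genes 1 was called, Cyp17a1, a steroid hydroxylase. It was at 12.63, 11.92 and 12.09 in ANIT livers, 11.54, 12.02 and 11.79 in corn oil 5 ml/kg livers, 8.75, 8.40 and 9.50 in APAP livers and 11.17, 10.93 and 12 in corn oil 2 ml/kg livers. Only the APAP livers were low, which made the difference positive at 2.92 ± 0.43 (adjusted p = 0.00229).

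Of 21 genes of glucuronidation and sulfation 5 were called lower and 0 higher, among them Ugdh and Ugp2 described above. Ugt2b had the lowest difference of all genes, -4.43 ± 0.83 (adjusted p = 0.00917), from 7.32, 8.12 and 7.77 in ANIT livers, 13.59, 11.59 and 13.65 in corn oil 5 ml/kg livers, 13.73, 11.65 and 13.87 in APAP livers and 13.97, 13.85 and 13.76 in corn oil 2 ml/kg livers. ANIT livers were lowest, and corn oil 5 ml/kg 2 and APAP 2 lay below the rest of their groups. When all probe sets of Ugt2b were averaged the difference was -3.04 and not called. The related Ugt2b1 rose with both compounds, at 13.64, 13.39 and 13.58 in ANIT livers against 12.10, 11.57 and 12.30 in corn oil 5 ml/kg livers and 12.80, 13.19 and 13.15 in APAP livers against 11.73, 11.69 and 11.60 in corn oil 2 ml/kg livers. Neither treated group overlapped its controls, the rise was 1.55 with ANIT and 1.37 with APAP, and the 95% interval of the difference was -0.32 to 0.68. Sult1c3, a sulfotransferase, fell with ANIT only (-1.43, against -0.09).

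Of 18 bile acid synthesis genes 1 was called higher and 2 lower, and 0 and 3 without the 3 low-topped arrays. Cyp7a1, the rate-limiting enzyme of bile acid synthesis, was at 12.48, 13.16 and 11.98 in ANIT livers, 9.62, 8.71 and 10.72 in corn oil 5 ml/kg livers, 9.33, 10.32 and 10.28 in APAP livers and 11.14, 11.49 and 9.54 in corn oil 2 ml/kg livers. ANIT livers lay above all others, while the corn oil livers were widely spread within both groups. The difference of 3.60 ± 0.78 (adjusted p = 0.0208) lost its call without APAP 1, corn oil 2 ml/kg 1, corn oil 2 ml/kg 2 or corn oil 5 ml/kg 1 (adjusted p 0.0507 to 0.0563) and was 2.55 and not called without the 3 low-topped arrays. Amacr, a racemase of side-chain shortening, and Cyp39a1, an oxysterol hydroxylase, were called lower, with Amacr at -1.25 ± 0.22 and Cyp39a1 at -1.03 ± 0.21. Nr0b2, the repressor SHP that bile acids induce, read -1.25 with ANIT and 0.85 with APAP, and its difference of -2.10 ± 0.62 was not called.

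Among 20 transporters 4 were called lower and 0 higher. Abcg5, which exports sterols into bile together with Abcg8, stood at 8.97, 9.40 and 9.69 in ANIT livers, 11.62, 11.71 and 12.07 in corn oil 5 ml/kg livers, 11.25, 10.89 and 11.21 in APAP livers and 11.08, 10.79 and 10.47 in corn oil 2 ml/kg livers. ANIT livers were below all others, and corn oil 5 ml/kg livers above corn oil 2 ml/kg livers by 1.02. The difference was -2.78 ± 0.28 (adjusted p = 0.000167), and for Abcg8 -1.15 ± 0.22. For Abcg8 the corn oil gap was 0.64 and the gap between ANIT and APAP livers -0.50. Abcc4, a basolateral export pump, was raised by APAP alone (1.62, against 0.48 with ANIT), and its difference of -1.15 lost the call without any 1 array other than ANIT 1, corn oil 5 ml/kg 2, APAP 3 or corn oil 2 ml/kg 1 (adjusted p 0.0506 to 0.0717). Abcc3, the other basolateral pump, rose alike in both: 12.72, 11.69 and 11.96 in ANIT livers against 9.28, 8.88 and 10.11 in corn oil 5 ml/kg livers, and 11.69, 11.66 and 11.60 in APAP livers against 8.60, 8.91 and 8.82 in corn oil 2 ml/kg livers. Every treated liver exceeded every corn oil liver, the rise was 2.70 with ANIT and 2.87 with APAP, and the interval of the difference ran from -1.04 to 0.70. The uptake carrier Slc10a1 fell with ANIT (-1.34) and read 0.08 with APAP, with a difference of -1.42 ± 0.38 that was not called.

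Inflammation genes were led by Lcn2, lipocalin 2, which binds bacterial siderophores and is made by injured liver and by neutrophils. It was the highest difference of all genes, with 13.75, 13.38 and 15.61 in ANIT livers, 8.90, 8.98 and 8.78 in corn oil 5 ml/kg livers, 8.48, 7.65 and 9.42 in APAP livers and 8.76, 8.95 and 8.69 in corn oil 2 ml/kg livers. ANIT livers stood far above the rest, ANIT 3 highest, and the difference was 5.64 ± 0.70 (adjusted p = 0.000856); without the 3 low-topped arrays, ANIT 1 and ANIT 2 among them, it was 7.05. The neutrophil chemoattractant Cxcl1 lay at 11.61, 11.43 and 11.07 in ANIT livers, 8.90, 8.64 and 8.59 in corn oil 5 ml/kg livers, 9.15, 9.07 and 9.69 in APAP livers and 8.96, 8.71 and 8.85 in corn oil 2 ml/kg livers. ANIT livers were highest, and APAP livers were above their controls without overlap at an effect of 0.46 that was not called (difference 2.20 ± 0.24, adjusted p = 0.00034). Il1rn, the interleukin 1 receptor antagonist, differed by 1.07, and Ccl5 by -0.89, a call lost without any 1 array other than ANIT 1, corn oil 5 ml/kg 2, APAP 2 or corn oil 2 ml/kg 3 (adjusted p 0.0651 to 0.0891). The corn oil gap of Ccl5 was 0.47. Chemokines and cytokines had 4 of 27 members called higher and 1 lower.

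Acute phase proteins did not move as a block, with 4 of 27 called higher, 3 lower and a median of 0.0. Lbp, which carries bacterial lipopolysaccharide, had 13.56, 13.39 and 13.71 in ANIT livers, 12.31, 12.33 and 12.53 in corn oil 5 ml/kg livers, 12.09, 12.57 and 12.31 in APAP livers and 12.40, 12.44 and 12.37 in corn oil 2 ml/kg livers. ANIT livers alone were high (difference 1.24 ± 0.17, adjusted p = 0.00143). Serpina3c and, outside the list, Serpina3l are serine protease inhibitors that fell with ANIT. Serpina3l was at 12.08, 12.37 and 12.45 in ANIT livers, 15.70, 14.35 and 15.67 in corn oil 5 ml/kg livers, 15.71, 15.67 and 15.68 in APAP livers and 15.71, 15.68 and 15.71 in corn oil 2 ml/kg livers. The low value among its controls is the array with a lower top; the difference was -2.93 ± 0.38 (adjusted p = 0.00109) with it, and -3.23 without the 3 arrays. The remaining corn oil and APAP values of Serpina3l, 15.67 to 15.71, lay near the array maxima of 15.95 to 15.99. Changes may be compressed there, so the size of its fall and its APAP effect may not be resolved. Serpina3c had -2.32 with all arrays and -3.23 without the 3. Mt2A, a metallothionein that binds zinc, fell with ANIT at 12.10, 13.23 and 12.99 against 14.25, 14 and 14.09 in corn oil 5 ml/kg livers, with 14.53, 14.58 and 14.31 in APAP livers and 14.05, 14.21 and 14.19 in corn oil 2 ml/kg livers (difference -1.66 ± 0.31). Without the 3 arrays 9 acute phase genes were called higher and 3 lower.

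Immediate early genes had 6 of 26 members called higher and 0 lower, with 10 raised and 1 lowered by ANIT. Ccn2, a secreted matrix-associated protein, was at 10.68, 10.86 and 10.68 in ANIT livers, 9.21, 8.56 and 9.32 in corn oil 5 ml/kg livers, 8.05, 8.01 and 8.27 in APAP livers and 8.61, 8.50 and 7.97 in corn oil 2 ml/kg livers. ANIT livers were above all others (difference 1.96 ± 0.28, adjusted p = 0.00172). The AP-1 subunit genes Jun and Junb differed by 1.99 ± 0.38 and 1.18 ± 0.15, and Klf6, a factor of liver injury, by 1.66 ± 0.23; Jun was not called without the 3 arrays at 1.99. Fos and Egr1 gave -0.25 and 1.10 and were not called.

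Some markers of other cells were higher in ANIT livers, and their part in the differences was not tested. Cholangiocyte and ductular markers were called higher in 4 of 22 members, and the mean of the list was 9.50 to 9.84 in ANIT livers, 9.10 to 9.15 in corn oil 5 ml/kg livers, 9.11 to 9.18 in APAP livers and 9.13 to 9.15 in corn oil 2 ml/kg livers. Only the ANIT livers of this list were set apart. Epcam, an adhesion molecule of duct and progenitor cells, was at 12.04, 11.72 and 11.57 in ANIT livers, 9.51, 9.44 and 9.88 in corn oil 5 ml/kg livers, 10.26, 10.35 and 10.02 in APAP livers and 10.44, 10.39 and 9.95 in corn oil 2 ml/kg livers (difference 2.21 ± 0.23, adjusted p = 0.000238). Krt8 and Krt18, keratins of hepatocytes as well as ducts, differed by 1.66 ± 0.16 and 1.17 ± 0.16, whereas the duct keratins Krt19 and Krt7 gave 1.01 ± 0.40 and 0.80 ± 0.29 and were not called; without the 3 low-topped arrays Krt7 was called at 1.38. Neutrophil markers averaged 8.24 to 8.36 in ANIT livers, 7.72 to 7.87 in corn oil 5 ml/kg livers, 7.55 to 7.77 in APAP livers and 7.62 to 7.73 in corn oil 2 ml/kg livers; the list counts Lcn2, its only called member of 11. Without Lcn2 the other 10 averaged 7.64 to 7.81 in ANIT livers, 7.61 to 7.76 in corn oil 5 ml/kg livers, 7.54 to 7.65 in APAP livers and 7.50 to 7.63 in corn oil 2 ml/kg livers, so ANIT livers overlapped their controls. The median difference of the 11 was -0.04, 6 of them lay below 0, and S100a8 and S100a9 gave 0.79 and 0.80 without a call. Hepatocyte markers averaged 13.89 to 14.58 in ANIT livers, 14.02 to 14.78 in corn oil 5 ml/kg livers, 14.67 to 14.74 in APAP livers and 14.80 to 14.83 in corn oil 2 ml/kg livers, the low ends being arrays with a lower top, and 1 of 20 was called, against 2 higher and 3 lower without the 3 arrays. The 1 called with all arrays was Apoa1, the main protein of high density lipoprotein, at 14.42, 14.43 and 15.52 in ANIT livers, 14.38, 14.18 and 14.39 in corn oil 5 ml/kg livers, 13.69, 13.08 and 13.59 in APAP livers and 14.56, 14.30 and 14.61 in corn oil 2 ml/kg livers. APAP livers were lowest without overlap, and the difference of 1.51 ± 0.36 (adjusted p = 0.0296) lost its call without APAP 2, corn oil 2 ml/kg 1, corn oil 2 ml/kg 3, corn oil 5 ml/kg 1, corn oil 5 ml/kg 2 or corn oil 5 ml/kg 3 (adjusted p 0.0598 to 0.0756) and was called at 2.17 without the 3 arrays. The macrophage list had 1 of 23 members called lower and 0 higher, where 2.4% of all genes were called lower. Lymphocyte and endothelial lists had 0 called members of 20 and 16. Each of these lists had 4 members at an unadjusted p under 0.05 (limma). Lymphocyte markers averaged 8.47 to 8.54 in ANIT livers, below the 8.60 to 8.80 of corn oil 5 ml/kg livers. APAP livers lay at 8.61 to 8.67 and corn oil 2 ml/kg livers at 8.58 to 8.74. ANIT lowered 2 of the 20 lymphocyte markers, where it lowered 3.49% of all genes. Their differences were below 0 in 15 and above 0 in 5.

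Matrix and stellate cell genes leaned to higher differences. Of 37 members 11 were called higher and 0 lower, and the list averaged 10.41 to 10.69 in ANIT livers, 10.12 to 10.21 in corn oil 5 ml/kg livers, 9.59 to 9.83 in APAP livers and 9.81 to 9.98 in corn oil 2 ml/kg livers; 3 of the members, among them Col4a1, were also called higher in corn oil 5 ml/kg than in corn oil 2 ml/kg livers. Timp1, an inhibitor of matrix proteases, had the firmest value of the list: 11.48, 11.41 and 11.49 in ANIT livers, 9.05, 9.14 and 9.16 in corn oil 5 ml/kg livers, 8.79, 8.53 and 8.71 in APAP livers and 8.94, 8.86 and 8.71 in corn oil 2 ml/kg livers. ANIT livers were far above the rest and replicates lay close together (difference 2.50 ± 0.12, adjusted p = 2.16e-06). Col1a1 differed by 1.62 ± 0.39, a call lost without any 1 array other than ANIT 3, corn oil 5 ml/kg 3, APAP 3 or corn oil 2 ml/kg 3 (adjusted p 0.0609 to 0.0839), and Postn, a matrix protein of remodelling tissue, by 2.22 ± 0.46. Serpinh1, the chaperone of collagen and outside this list, differed by 1.66 ± 0.19. Lox, which crosslinks collagen, came from the APAP side: 10.40, 10.10 and 9.62 in ANIT livers, 9.23, 10.80 and 9.85 in corn oil 5 ml/kg livers, 8.45, 7.87 and 8.48 in APAP livers and 10.46, 10.86 and 10.61 in corn oil 2 ml/kg livers. The APAP livers were lowest of all, ANIT livers overlapped their controls, and the difference was 2.46 ± 0.46 (adjusted p = 0.00947). Cav2, a caveola protein, followed with an APAP effect of -1.74, an ANIT effect of 0.21 and a difference of 1.95 ± 0.31. Without the 3 low-topped arrays 5 of the 37 were called higher and 1 lower.

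Among genes of no list, Tsx, a gene best known from testis, was at 12.16, 12.04 and 11.14 in ANIT livers, 7.59, 7.49 and 7.61 in corn oil 5 ml/kg livers, 7.57, 7.63 and 7.48 in APAP livers and 7.99, 7.58 and 7.56 in corn oil 2 ml/kg livers. Gucy2c, the guanylate cyclase receptor for guanylin, had 11.35, 11.24 and 10.70 in ANIT livers, 7.79, 8.02 and 7.76 in corn oil 5 ml/kg livers, 8.14, 7.82 and 7.87 in APAP livers and 8.08, 7.98 and 7.97 in corn oil 2 ml/kg livers. Both were high in ANIT livers alone, with differences of 4.37 ± 0.30 and 3.31 ± 0.21 (adjusted p = 1.17e-05 and 5.79e-06). Wfdc21, a protease inhibitor-like secreted protein, differed by 3.27 ± 0.36. Adh7, an alcohol and retinol dehydrogenase, was lower in ANIT livers at -1.78 and differed by -2.41 ± 0.56, a call lost without any 1 array other than ANIT 2, corn oil 5 ml/kg 1, corn oil 5 ml/kg 3 or APAP 2 (adjusted p 0.0539 to 0.0669). Cryl1, a crystallin-like dehydrogenase, was raised by APAP alone, with 11.03, 10.57 and 10.86 in ANIT livers, 10.67, 10.54 and 10.79 in corn oil 5 ml/kg livers, 12.42, 12.30 and 12.46 in APAP livers and 10.80, 10.61 and 10.61 in corn oil 2 ml/kg livers. Only APAP livers were high (difference -1.57 ± 0.16, adjusted p = 0.000221). Aldh1a1, a retinal dehydrogenase among the CAR and PXR targets (3 of 16 called lower), rose by 1.18 with APAP and read -0.12 with ANIT (difference -1.30), a call lost without corn oil 5 ml/kg 1 or corn oil 5 ml/kg 3 (adjusted p 0.0571 to 0.0588). The corn oil gap of Aldh1a1 was 0.69.

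Amino acid breakdown, iron and clock genes gave single calls in several lists. Of 40 amino acid genes 7 were called lower and 2 higher, led by Hal of histidine breakdown at -1.37 ± 0.33, a call lost without any 1 array other than ANIT 2, ANIT 3, APAP 2 or corn oil 2 ml/kg 3 (adjusted p 0.0597 to 0.0847), and by Kynu and Kmo of the kynurenine route at -0.96 and -0.96. Glul, glutamine synthetase of the hepatocytes around the central vein, was called from the APAP side, with 12.37, 12.03 and 11.97 in ANIT livers, 11.78, 11.94 and 12.09 in corn oil 5 ml/kg livers, 11.24, 10.91 and 11.61 in APAP livers and 12.24, 12.35 and 12.03 in corn oil 2 ml/kg livers. APAP livers were lowest without overlap (APAP effect -0.95, ANIT effect 0.18, difference 1.14 ± 0.23, adjusted p = 0.0161), and the difference was 0.99 and not called without the 3 low-topped arrays. Fech, the last enzyme of heme synthesis, and Ireb2, an iron sensor, differed by -0.90 ± 0.14 and -0.90 ± 0.14. The glucose transporter Slc2a2 was called higher (0.86 ± 0.12) and the gluconeogenic Fbp1 lower at -0.64 ± 0.14, a call lost without any 1 array other than ANIT 1, ANIT 3, corn oil 5 ml/kg 2, APAP 3 or corn oil 2 ml/kg 3 (adjusted p 0.0521 to 0.0697). Bhlhe40, a clock repressor, differed by 2.32 ± 0.56, lost without any 1 array other than ANIT 1, corn oil 5 ml/kg 2, APAP 3 or corn oil 2 ml/kg 2 (adjusted p 0.0608 to 0.0823), and the receptor gene Thrb by -0.70 ± 0.11. Among complement genes C5 was at 0.66 ± 0.10, while C1r at 0.76 lost the call without APAP 2, APAP 3, corn oil 2 ml/kg 2, corn oil 2 ml/kg 3, corn oil 5 ml/kg 1 or corn oil 5 ml/kg 2 (adjusted p 0.0511 to 0.0606) and C1s at 0.70 without any 1 array other than ANIT 3, corn oil 5 ml/kg 3, APAP 1 or corn oil 2 ml/kg 1 (adjusted p 0.0519 to 0.0663). Both were also lost without the 3 arrays. The next lists had calls near the share over all genes, 3.18% higher and 2.4% lower. The ER chaperone list had 1 of 24 called, Herpud1 at -0.94, with a corn oil gap of 0.50 and a gap of -0.44 between ANIT and APAP livers. Heat shock genes had 1 of 19 called, Serpinh1. Aminoacyl-tRNA synthetases had 1 of 19 called, Aars1 at -0.63. Its call was lost without any 1 array other than ANIT 1, ANIT 2, APAP 2 or corn oil 2 ml/kg 3 (limma, adjusted p 0.0601 to 0.0992). Interferon genes had 2 of 30 called, Ifitm3 at 1.71 ± 0.30 and Psmb10 at 0.81. The Psmb10 call was lost without any 1 array other than ANIT 1 or ANIT 3 (limma, adjusted p 0.0505 to 0.105). Ribosomal proteins, pancreatic markers and the growth hormone axis had 0 called members of 31, 15 and 17, with 7, 3 and 5 at an unadjusted p under 0.05 (limma), where 3202 of all 14217 genes had one. Without the 3 low-topped arrays heat shock genes gave 1 higher and 1 lower, aminoacyl-tRNA synthetases 2 lower, interferon genes 1 higher, amino acid genes 6 lower and 0 higher, and the growth hormone axis 1 in each direction.

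Some genes answered to both compounds with no called difference. Both effects were called in 23 genes, 19 of them in the same direction (12 up and 7 down), and 14 of the 19 had no called difference. The 2 effects were nearest in transketolase Tkt, given above, and next in Oat, ornithine aminotransferase, which both compounds lowered (-1.06 with ANIT and -1.08 with APAP), with 11.10, 11.86 and 11.19 in ANIT livers against 12.18, 12.49 and 12.68 in corn oil 5 ml/kg livers and 11.18, 11.58 and 11.58 in APAP livers against 12.79, 12.32 and 12.47 in corn oil 2 ml/kg livers. Neither treated group overlapped its controls, and the 95% interval of the difference, -0.61 to 0.64, still allowed a gap above 1.5-fold either way. Ctps1, which makes CTP, rose by 0.98 and 1.10 (interval -0.73 to 0.49), and the epoxide hydrolase Ephx1 by 1.07 and 1.94 (interval -1.66 to -0.06); Ephx1 was called at -1.25 without APAP 3. Ugt2b34l1 rose by 1.77 and 1.08 (interval 0.11 to 1.27) and was called at 0.94 without corn oil 5 ml/kg 3. The globin gene Hbb and the erythroid heme enzyme Alas2 fell with both compounds: Hbb lay at 12.52, 12.37 and 12.63 in ANIT livers against 13.63, 13.90 and 14.05 in corn oil 5 ml/kg livers and at 10.11, 9.89 and 10.88 in APAP livers against 13.43, 13.05 and 12.39 in corn oil 2 ml/kg livers. Each treated group lay below its own controls, although corn oil 2 ml/kg 3 was as low as the ANIT livers, and the difference of 1.31 ± 0.37 (adjusted p = 0.0672) was called at 1.61 without APAP 3 and 1.60 without corn oil 2 ml/kg 3. Alas2 gave -1.40 with ANIT and -1.61 with APAP (interval -0.60 to 1.04). The 9 erythroid markers, Hbb and Alas2 among them, averaged 9.17 to 9.32 in ANIT livers, 9.47 to 9.58 in corn oil 5 ml/kg livers, 8.74 to 8.85 in APAP livers and 9.09 to 9.41 in corn oil 2 ml/kg livers, and their part in both falls was not tested. Each compound lowered 2 of the 9, Hbb and Alas2. The median effect of the list was 0.02 with ANIT and -0.02 with APAP. The APAP calls as a whole numbered 69, of which 37 were also called in the difference and 45 had the same sign in ANIT livers.

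A called difference can rest on the corn oil groups. In 33 of the 793 genes the corn oil gap made up more than 50% of the difference, in 35 the corn oil groups were over 1.5-fold apart, and in 2, Pir and Col4a1, the corn oil groups were themselves called different. The 35 and the 2 hold gaps that widen the difference or narrow it. In Col4a1 the corn oil gap of 0.88 narrowed it, as the gap between ANIT and APAP livers was 1.60 and the difference 0.72. Among genes described above, the 33 held Gsta3, Me1, Abcg8, Aldh1a1, Angptl4, Ccl5 and Herpud1. Pir, an iron-binding nuclear protein and NRF2 target, was at 11.18, 11.07 and 11.20 in ANIT livers, 11.07, 10.35 and 10.64 in corn oil 5 ml/kg livers, 11.32, 11.64 and 11.47 in APAP livers and 9.89, 9.48 and 9.24 in corn oil 2 ml/kg livers. The corn oil 2 ml/kg livers were lowest, the gap between ANIT and APAP livers was -0.33, and the corn oil gap was 1.15 in a difference of -1.48 ± 0.26. Abcb1a, the export pump P-glycoprotein, had 8.80, 8.36 and 9.22 in ANIT livers, 9.71, 10.15 and 9.69 in corn oil 5 ml/kg livers, 9.63, 9.10 and 9.48 in APAP livers and 8.27, 7.97 and 9.06 in corn oil 2 ml/kg livers, with a corn oil gap of 1.41 in a difference of -2.03 ± 0.38. Its call was lost without the 3 arrays at -1.45. Alas1, the first enzyme of heme synthesis in hepatocytes, had a gap of 0.93 in a difference of -1.17, a call lost without any 1 array other than ANIT 2 or corn oil 2 ml/kg 3 (adjusted p 0.0504 to 0.0982). Foxa3, a hepatocyte factor, had a gap of -0.96 in a difference of 1.07, a call lost without ANIT 1, corn oil 2 ml/kg 1, corn oil 2 ml/kg 2, corn oil 5 ml/kg 1 or corn oil 5 ml/kg 2 (adjusted p 0.0502 to 0.0656). The 18 genes called between the corn oil groups included the endothelial or basement membrane genes Col4a1, Col4a2, Nid1, Sparc, Stab2, Tie1 and Ramp2, all higher at 5 ml/kg, and the 16 endothelial markers averaged 10.25 to 10.36 in ANIT livers, 10.44 to 10.49 in corn oil 5 ml/kg livers, 9.69 to 10.18 in APAP livers and 9.79 to 10.13 in corn oil 2 ml/kg livers. What these gaps owe to volume, study or processing cannot be told apart. The 18 calls became 1 without the 3 low-topped arrays and 1 to 44 with single arrays left out.

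**Figure D5:**
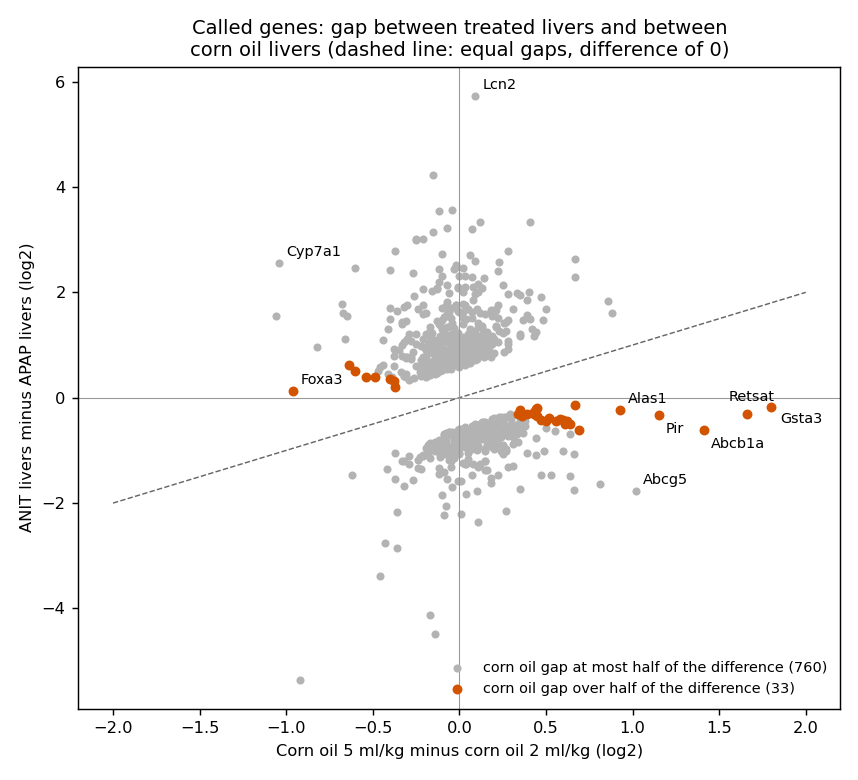
Gap between corn oil 5 ml/kg and corn oil 2 ml/kg livers (log2, horizontal) and between ANIT and APAP livers (log2, vertical) for the 793 genes called in the difference; the dashed line marks equal gaps, and orange points are the 33 genes whose corn oil gap exceeds 50% of the difference. Gsta3, Pir and Abcb1a lie at the right with corn oil gaps of 1.80, 1.15 and 1.41, and Lcn2 is the highest point.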

How the data were processed

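Liver RNA was labelled with biotin and hybridised to Affymetrix whole-genome rat expression arrays, 1 array per rat. The authors summarised the probes by robust multichip averaging (RMA) in Array Studio and deposited log2 values per probe set, which were used as given, with no raw intensity files used here. RMA is usually run to bring arrays to a common distribution, which 3 of the 12 deposited arrays did not share at the top of the scale, and it can compress fold changes of the brightest and dimmest probe sets. No detection calls were used. Arrays carry no read depth, so the number of arrays limits the precision.

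Groups came from sample titles. All 31042 probe sets other than controls were fitted with limma 3.58.1 (R 4.3.3) in 1 model of 4 groups with 3 samples each (8 residual degrees of freedom), and contrasts gave the difference between the effects, each effect and the corn oil gap. A call needed a Benjamini-Hochberg adjusted p under 0.05 and a change above 1.5-fold. A gene took its single-symbol probe set with the highest mean over all 23 samples (20826 probe sets with 1 symbol, 436 with several, 9780 with none, giving 14217 genes), named from the platform annotation. Probe sets of related genes may cross-hybridise.

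Named genes were the 12 highest and 12 lowest called differences, called genes with opposite effects, genes called in the APAP effect alone, genes called in both effects the same way, and in each list up to 4 called members and the members that define the pathway. The members and lists were chosen with earlier results of these data known. Alternatives covered normalization, a filter on dim probe sets, variance moderation, all 23 samples, an ordinary t-test, no fold threshold and leaving out each array. Leaving out 3 arrays together was added after seeing the data. The ordinary t-test used the spread pooled over the 4 groups (8 residual degrees of freedom) without moderation. It is not the t-test of the paper, which compared toxicant and control groups. Its unadjusted form called at p under 0.01. The fit was tested on simulated data.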

Additional observations from a re-analysis of the deposited data

Results flagged for a closer look

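The comparison is itself a difference between the effects of 2 compounds, and limma called 793 genes in it, so the genes at its ends are given here with their log2 differences. Above 0 and with the ANIT side moving stood Lcn2 (5.64), Tsx (4.37), Mybl1 (3.67), Cyp1a1 (3.61), Cyp7a1 (3.6), Gucy2c (3.31), Ccna2 (3.29, against values at the low end of the scale), Wfdc21 (3.27), Gstm3 (3.23), Cdkn3 (3.22) and Idi1 (3.16). Below 0 with the ANIT side moving stood Ugt2b (-4.43), Car3 (-4.34), Dhrs7l1 (-3.95), Serpina3l (-2.93), Abcg5 (-2.78), Gstp3 (-2.50), Ust5r (-2.46), Fgf21 (-2.45), Adh7 (-2.41), Serpina3c (-2.32) and G0s2 (-2.21).

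Genes called in both effects with opposite signs were Sqle (3.25), Cyp51 (2.41), Tm7sf2 (1.40) and Gclc (-1.68). Among the 28 genes called in the APAP effect alone were Akr7a3 (-2.42), Gstp1 (-2.0), Trib3 (-1.61), Ddit4l (-1.60), Gclm (-1.59), Cryl1 (-1.57), Ugdh (-1.53), Pir (-1.48) and Aldh1a1 (-1.30) on the side that APAP raised, and Cyp17a1 (2.92), Lox (2.46) and Cav2 (1.95) on the side that APAP lowered. No group of 3 arrays can be searched for an outlying sample by the gap between its values.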

How the results depend on the processing

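Of 116 named genes with a called difference, 65 kept the call in all 22 alternatives and 51 lost it in at least 1; 0 reversed, and 4 of 9 named genes without a call gained one. Losses numbered 29 genes when single arrays were left out and 49 under the ordinary t-test after adjustment. Of 1804 list counts 1580 stayed within 1.5 times. These include counts of 0 that stayed at 0, as for mitosis and cholesterol synthesis genes called lower, so the share says less about the other counts.

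The 793 genes called in the difference became 383 with the ordinary t-test after adjustment and 605 to 856 with single arrays left out. Those called higher made up 57% of them, 62.9% after quantile normalization, 64.3% without ANIT 3 and 41.1% without the 3 arrays. The ANIT effect gave 2388 genes with no fold threshold, against 1078, and 964 to 1105 with single arrays left out. The 69 genes of the APAP effect became 114 by the ordinary t-test unadjusted and 19 after adjustment. With single arrays left out they became 35 to 80, lowest without corn oil 2 ml/kg 1 (35) or APAP 1 (39). The 18 genes between the corn oil groups became 44 without dim probe sets and 1 to 44 with single arrays left out. By the ordinary t-test they became 86 unadjusted and 0 after adjustment (1188 genes at an unadjusted limma p under 0.05). The cause of these moves was not tested.

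No paired analysis was possible because the groups hold different rats, from 2 in-life studies, and replicate numbers only name the samples. With 3 arrays per group, ANIT values without the 3 arrays rest on 1 liver.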
